A study of Homo sapiens with 6 samples.

Results

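Amino acid shortage, and misfolded protein in the endoplasmic reticulum (ER), are answered in human cells by overlapping sets of genes, and 50 of these genes were followed here in bladder cancer cells treated with quisinostat. The list follows known function and holds targets of the transcription factor ATF4 and genes of the unfolded protein response. The expression table, with 10066 assembled loci under 9597 gene names, holds 46 of the 50. The other 4 (PSPH, CBS, VLDLR and ERN1) were not analysed here. All 46 were above 0 in every library.

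RNA was sequenced from RT4, RT112 and SW780 cells, epithelial bladder cancer lines that each carry an FGFR3 fusion, with TACC3 as the partner in RT4 and RT112 and BAIAP2L1 in SW780. Cells received DMSO, the solvent control, or quisinostat, an inhibitor of histone deacetylases, for 2 days, at 50 nM in RT4, 10 nM in RT112 and 25 nM in SW780. There was 1 library for each of the 6 combinations, so a difference within a line has no replicate check. Culture media differed as well, since RT4 was kept in McCoy's 5A and the other lines in DMEM, to which non-essential amino acids and glutamine were added for RT112 alone. Cell line, dose and medium therefore cannot be told apart. Values are FPKM, which divides fragments by transcript length and by sequencing depth, and the depth itself is unknown because no read counts were used. A response is the log2 ratio of FPKM, quisinostat over DMSO, in the same line, so that 1 means 2-fold higher. Ratios covered the 9112 loci above 0 in all 6 libraries, and the median FPKM over all loci of a library ran from 6.59 to 7.39. In RNA from a whole culture, a change per cell and a change in which cells are present cannot be told apart.

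Amino acid shortage activates the kinase GCN2, and misfolded ER protein activates the kinase PERK. Both phosphorylate the initiation factor eIF2 alpha, which lowers most translation but favours that of ATF4, a bZIP transcription factor that switches on genes of amino acid synthesis and uptake. The ER has further sensors, IRE1, which splices the mRNA of XBP1, and ATF6, which is cleaved to a transcription factor, and these raise the chaperones, disulphide isomerases and degradation factors of the ER. Because ATF4 is controlled largely in translation and XBP1 by splicing, gene-level RNA values do not show the activity of either.

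Promoters of some of these genes carry the letters of short elements that such factors are known to bind, and a few of these matches are shown. In RefSeq windows on GRCh38.p14, from 250 bases before to 50 bases after each start, the letters TGATGNAA, bound by ATF4 with CEBP partners, were searched on both strands. They occurred in 3.62% of all 35116 windows and in 6 of the 64 windows of list genes (9.38%). These windows belong to 46 of the 50 listed genes, which are not the same 46 as in the expression table. Capitals mark the match, and each sequence runs in the direction of its gene.
ASNS, chr7:97872458-97872487, minus strand: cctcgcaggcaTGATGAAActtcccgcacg
ATF3, chr1:212565196-212565243, plus strand: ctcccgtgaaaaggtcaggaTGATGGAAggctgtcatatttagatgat
CEBPG, chr19:33374051-33374098, plus strand: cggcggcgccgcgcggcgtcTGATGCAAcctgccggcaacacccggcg
CHAC1, chr15:40953251-40953280, plus strand: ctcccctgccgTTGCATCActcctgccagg
HERPUD1, chr16:56931946-56931993, plus strand: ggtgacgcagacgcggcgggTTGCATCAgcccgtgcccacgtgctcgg

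In CHAC1 and HERPUD1 the match lies on the opposite strand, and the remaining match was in the window of PPP1R15B. The ER stress element is bound by ATF6 together with the CCAAT factor NF-Y, and was searched as CCAAT and CCACG separated by 9 bases of any kind, on both strands. It occurred in 0.0769% of all windows and in 9 of the 64 list windows (14.1%), which belong to CALR, CANX, CRELD2, HSP90B1, HSPA5, PDIA6 and XBP1. Examples follow from the main ER chaperones and from XBP1, again with the match in capitals.
HSPA5, chr9:125241371-125241429, minus strand: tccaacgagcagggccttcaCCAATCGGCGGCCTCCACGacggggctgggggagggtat
HSP90B1, chr12:103930211-103930239, plus strand: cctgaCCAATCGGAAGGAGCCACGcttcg
CALR, chr19:12938364-12938422, plus strand: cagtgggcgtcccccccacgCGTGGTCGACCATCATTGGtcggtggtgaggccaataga
CRELD2, chr22:49918534-49918592, plus strand: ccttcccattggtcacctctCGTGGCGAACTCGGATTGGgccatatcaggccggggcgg
XBP1, chr22:28800598-28800626, minus strand: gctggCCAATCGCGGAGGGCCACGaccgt

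CALR and CRELD2 hold the element on the opposite strand. A second form, ATTGG and CCACG separated by 1 base, occurred in 0.0541% of all windows and in those of HERPUD1, HYOU1 and SDF2L1. The letters TGACGTGG, bound by ATF6 and XBP1, occurred in 0.729% of all windows and in those of ALDH18A1 and HYOU1, where they overlap the second form in HYOU1. A match describes these letters only and is not a measured binding site.

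The levels of the 46 genes leaned upward with quisinostat in RT4 and SW780 and not in RT112. In RT4 cells the median log2 ratio of the list was 0.35, against 0.08 over all loci, and in SW780 cells it was 0.26 against 0.04. In RT112 cells the list median was 0.04, below 0 after centring, quantile normalization or the GC correction, and that of all loci 0.06. In RT4 cells 12 of the 46 genes were more than 2-fold higher with quisinostat, where 18.0% of all loci were, and 2 were more than 2-fold lower, where 14.1% of all loci were. RT112 cells had 3 list genes past 2-fold higher against 13.8% of loci, and 0 past 2-fold lower against 3.6% of loci, counts that became 1 and 2 after the correction for GC content described further on. SW780 cells had 10 past 2-fold higher against 10.5% of loci, and 2 past 2-fold lower against 7.35%, or 8 and 0 after that correction.

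RT112 gave the lowest of the 3 ratios for 27 of the 46 genes, and RT4 gave the highest for 21. There were 12 genes with a ratio above 0 in RT4 and SW780 and below 0 in RT112. Shares of all loci were not computed for these counts, so they describe the list only. In 5 genes the ratio was past 2-fold in 1 line and past 0.3 the other way in another, where 17.7% of all loci met the same limits. Across the 46 genes, Spearman's rho between the responses was 0.70 for RT4 and SW780, 0.24 for RT112 and SW780, and 0.04 for RT4 and RT112. Over all loci these values were 0.55, 0.20 and 0.04. After the correction for GC content described further on, the values across the 46 genes were 0.77, 0.48 and 0.38. None over all loci was computed after it. The points are genes that share libraries, so these are descriptions across genes.

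**Figure D1:**
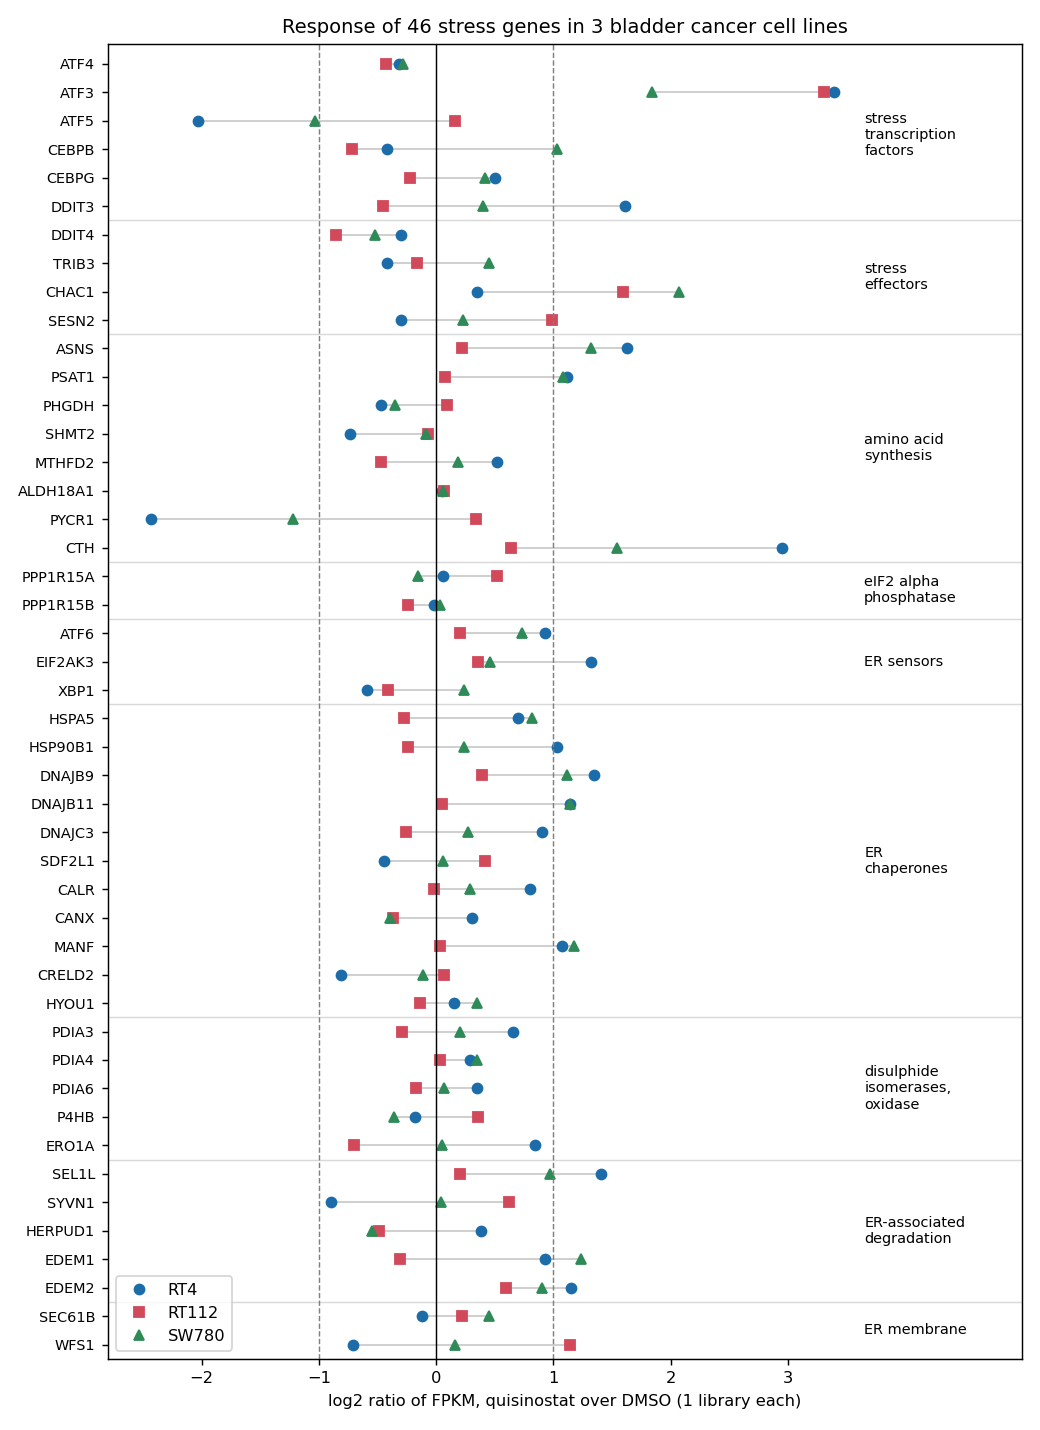
Log2 ratio of FPKM, quisinostat over DMSO, for the 46 genes (rows, by role) in RT4 (blue circles), RT112 (red squares) and SW780 (green triangles), 1 library per line and treatment. Dashed lines mark 2-fold, and grey bars join the lines of a gene. ATF3 lies past 2-fold in all 3 lines (3.39, 3.31 and 1.84).

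**Figure D2:**
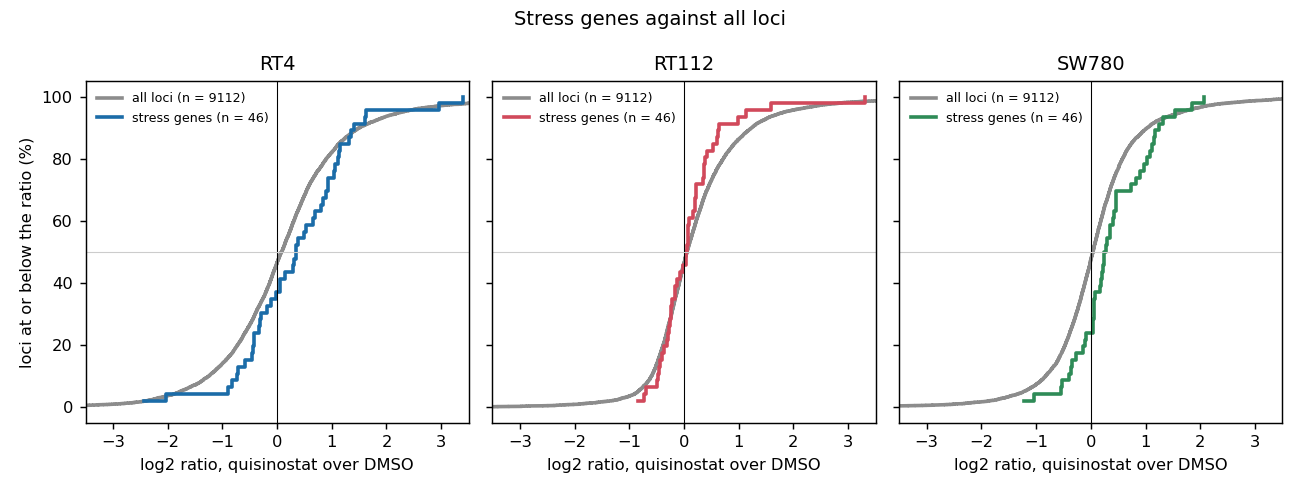
Percent of loci at or below each log2 ratio in each line, for all 9112 loci (grey) and the 46 stress genes (colour). The stress gene curve lies to the right of the grey curve over its middle in RT4 (medians 0.35 and 0.08) and SW780 (0.26 and 0.04) and crosses it near the median in RT112 (0.04 and 0.06).

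By a limit of 0.3 on the log2 scale in the same direction in all 3 lines, which the study states for lowered genes and which was applied here to both directions, 6 of the 46 genes were higher (ATF3, CHAC1, CTH, DNAJB9, EDEM2 and EIF2AK3), where 11.4% of all loci were. Only DDIT4 was lower by that limit, where 4.99% of all loci were. With quantile normalization 2 were higher and 1 lower, and with RT112 left out 16 were higher and 4 lower in both remaining lines. A rule on fewer lines is looser, and its share of all loci was not computed. In 5 genes (ATF3, ATF6, DNAJB9, DNAJB11 and EDEM2) all 3 quisinostat libraries lay above all 3 DMSO libraries, against 6.18% of all loci. In SHMT2 alone all 3 lay below, against 4.43% of loci.

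With the lines as the only replicates of the treatment, limma with cell line as a block and Benjamini-Hochberg adjustment over 9430 loci called 0.0% of loci higher and 0.0% lower, and none of the 45 list genes tested. At an unadjusted p under 0.05 it listed 8 of the 45 as higher, where 9.68% of loci were, and 1 (DDIT4) as lower, where 4.16% were. The smallest adjusted p among the list genes was 0.226, for ATF3. Every statement on a direction is therefore about these 6 libraries.

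The transcript of ATF4 itself, on GRCh38 chr22:39519695-39522685, was lower with quisinostat in each line, although the RT4 ratio turned to 0.10 after the correction for GC content described further on. It measured 106, 114 and 135 FPKM in RT4, RT112 and SW780 with DMSO and 85.1, 84.5 and 111 FPKM with quisinostat. The treated SW780 library lay between the DMSO values of RT4 and RT112, so the groups overlapped. Its log2 ratios were -0.32, -0.43 and -0.28, and the limma estimate was -0.34 ± 0.16 (SE, 3 pairs of libraries, adjusted p = 0.400).

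ATF3, a bZIP factor induced downstream of ATF4 and by many other stresses, had the highest ratio on the list in RT4 and RT112 (chr1:212565334-212620777). Its level with DMSO was 0.445, 0.682 and 1.31 FPKM in RT4, RT112 and SW780, and with quisinostat it was 4.66, 6.79 and 4.69 FPKM. The lowest treated library lay above the highest control library. These levels are 10.5-fold, 9.95-fold and 3.59-fold higher, and the ratio exceeded that of 97.6%, 98.5% and 96.0% of all loci in the respective line. On the log2(FPKM + 1) scale limma gave 1.83 ± 0.31 (SE, 3 pairs, adjusted p = 0.226).

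DDIT3, which encodes CHOP, a bZIP factor linked to cell death under prolonged ER stress, split by line. Its FPKM went from 7.25 to 22.2 in RT4, from 5.09 to 3.73 in RT112 and from 7.76 to 10.2 in SW780. The RT4 library with quisinostat stood apart from the other 5, and the log2 ratios were 1.61, -0.45 and 0.40. The difference between lines was not tested, since each ratio rests on 1 library per condition.

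The other bZIP factors did not share a direction. CEBPG, a partner of ATF4 whose promoter holds the composite element, had ratios of 0.50, -0.22 and 0.42 in RT4, RT112 and SW780. CEBPB, another partner, went from 4.18 to 3.13 FPKM in RT4, from 6.48 to 3.92 in RT112 and from 3.23 to 6.58 in SW780 (log2 ratios -0.42, -0.72 and 1.03), and after the GC correction the RT4 ratio turned to 0.97. ATF5, which is translated under stress in the manner of ATF4, went from 19.2 to 4.71 FPKM in RT4, from 4.14 to 4.62 in RT112 and from 5.86 to 2.86 in SW780. The RT4 control stood far above the other 5 libraries of ATF5, and because its locus also carries the microRNA gene MIR4751 the value belongs to both. These 6 transcription factors had medians of 0.09, -0.33 and 0.41 in RT4, RT112 and SW780, and of 0.57, -0.58 and 0.33 after the GC correction.

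Among the effectors of the stress response, DDIT4 (chr10:72273920-72276036) was lower in each line, although the RT4 ratio turned to 0.27 after the GC correction. DDIT4 encodes REDD1, an inhibitor of mTORC1. It measured 34.5, 58.1 and 30.1 FPKM with DMSO and 27.9, 32.3 and 21.0 FPKM with quisinostat in RT4, RT112 and SW780. The groups overlapped, because the treated RT112 library exceeded the SW780 control, and limma gave -0.54 ± 0.19 (SE, 3 pairs, adjusted p = 0.332).

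CHAC1, an enzyme that degrades glutathione and a target of ATF4 and ATF3, was higher in each line from low levels, although its ratios turned to -0.18 in RT4 and -0.20 in RT112 with quantile normalization. It went from 0.484 to 0.615 FPKM in RT4, from 0.0728 to 0.219 in RT112 and from 0.801 to 3.38 in SW780. Only the treated SW780 library was above 1 FPKM, and the mean over libraries was too low for the limma fit. The log2 ratios were 0.35, 1.59 and 2.07, and the smaller of these rest on very low values.

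TRIB3, a pseudokinase and a classical target of ATF4 and CHOP, went from 13.1 to 9.81 FPKM in RT4, from 3.87 to 3.45 in RT112 and from 9.95 to 13.6 in SW780. Its groups overlapped, and its ratios were -0.42, -0.16 and 0.45. SESN2, a sestrin that binds leucine and restrains mTORC1, went from 17.6 to 14.3 FPKM in RT4, from 3.68 to 7.28 in RT112 and from 7.92 to 9.27 in SW780. RT112 had the largest response of this gene, at 0.99 on the log2 scale, against -0.30 in RT4 and 0.23 in SW780, but after the GC correction the SESN2 ratios were 0.42, 0.45 and 0.43 in RT4, RT112 and SW780.

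The enzymes of amino acid synthesis divided by gene rather than moving as a block, with medians over 8 genes of 0.29, 0.09 and 0.13 in RT4, RT112 and SW780. ASNS, asparagine synthetase and the best known amino acid response target, went from 9.53 to 29.6 FPKM in RT4, from 6.75 to 7.85 in RT112 and from 29.1 to 72.8 in SW780. These are 3.10-fold, 1.16-fold and 2.50-fold higher, and the control SW780 library was close to the treated RT4 library. The limma estimate was 1.01 ± 0.30 (SE, 3 pairs, adjusted p = 0.317).

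CTH, cystathionine gamma-lyase, which makes cysteine from cystathionine, went from 0.142 to 1.10 FPKM in RT4, from 0.646 to 1.01 in RT112 and from 1.02 to 2.97 in SW780. Its log2 ratios were 2.95, 0.64 and 1.54, and the RT112 ratio turned to -0.22 with quantile normalization. The treated RT112 library did not exceed the SW780 control. In RT4 the ratio of CTH exceeded that of 97.0% of all loci, while its level stayed low.

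The serine pathway showed no common direction. PSAT1, the aminotransferase of serine synthesis, went from 21.7 to 47.1 FPKM in RT4, from 8.38 to 8.85 in RT112 and from 0.424 to 0.894 in SW780. Its level without drug spanned 51.2-fold between lines, the widest range of the 46 genes, with SW780 lowest. PHGDH, the dehydrogenase of the preceding step, went from 37.3 to 27.0 FPKM in RT4, from 19.2 to 20.5 in RT112 and from 28.3 to 22.3 in SW780. SHMT2, which converts serine to glycine in mitochondria, had ratios of -0.73, -0.07 and -0.09, with all 3 treated libraries (40.5, 55.7 and 56.0 FPKM) below all 3 controls (67.3, 58.3 and 59.4 FPKM).

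MTHFD2, a mitochondrial folate enzyme, had ratios of 0.52, -0.47 and 0.19. In proline synthesis, ALDH18A1 of the entry step hardly differed between treatments, with ratios of 0.05, 0.07 and 0.06. PYCR1, the final reductase of the same pathway, went from 18.6 to 3.43 FPKM in RT4, from 12.2 to 15.4 in RT112 and from 12.7 to 5.46 in SW780. Its ratios of -2.43 in RT4 and -1.22 in SW780 were the lowest of the list in those lines, and its ratio in RT112 was 0.34. The ALDH18A1 level ran from 28.5 to 39.6 FPKM over the 6 libraries.

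The phosphatase that reverses eIF2 alpha phosphorylation has an inducible subunit, GADD34, encoded by PPP1R15A, and a constitutive one, CReP, encoded by PPP1R15B. PPP1R15A, a target of ATF4 and CHOP, went from 16.8 to 17.5 FPKM in RT4, from 6.77 to 9.72 in RT112 and from 7.61 to 6.88 in SW780. PPP1R15B had ratios of -0.02, -0.24 and 0.03. Neither gene reached 2-fold in any line.

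**Figure D3:**
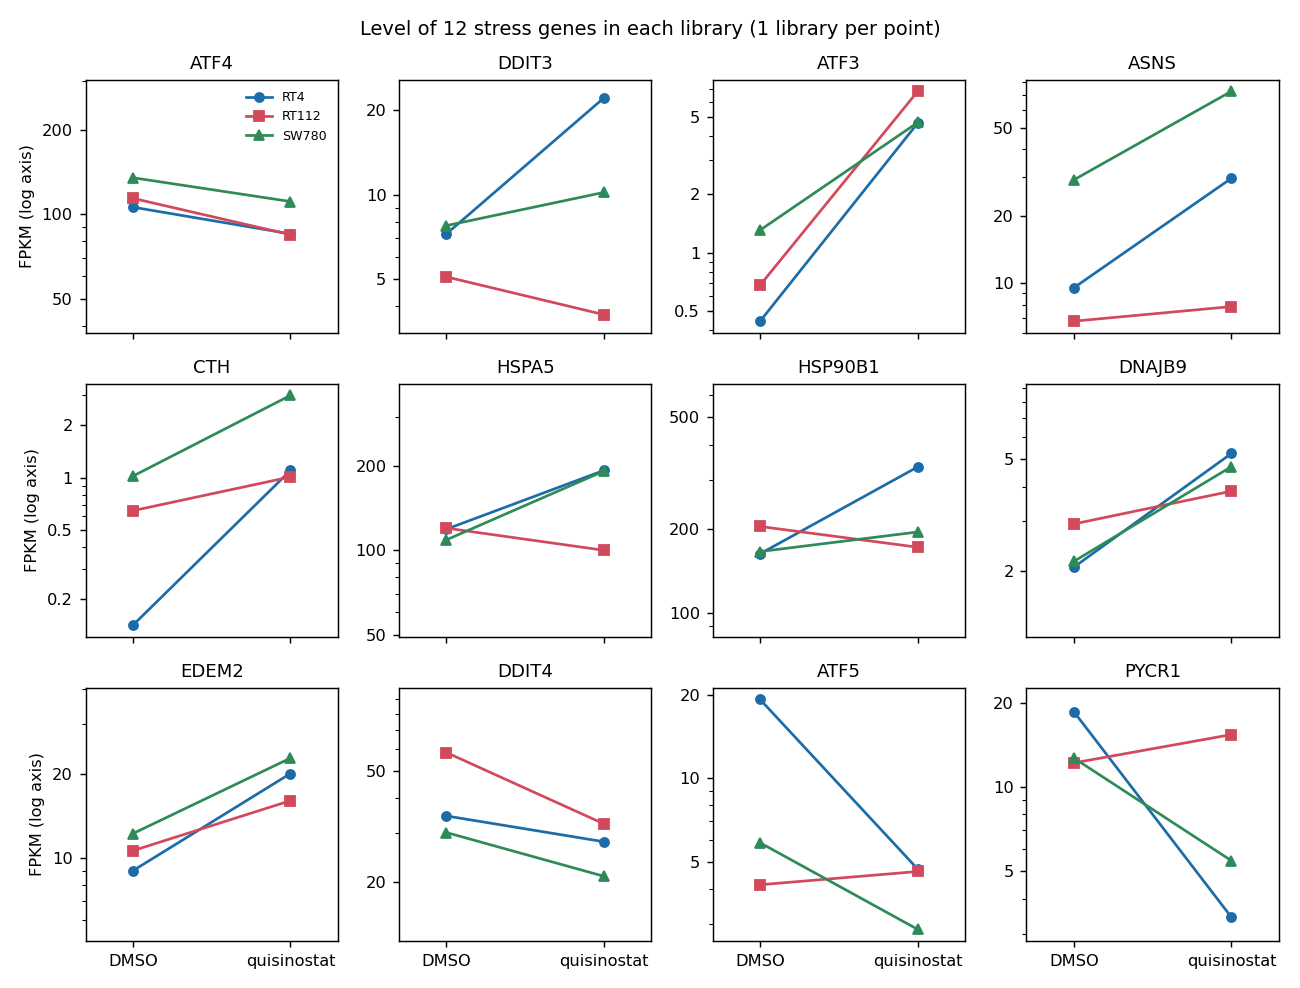
FPKM on log axes of 12 of the genes in the DMSO and the quisinostat library of RT4 (blue circles), RT112 (red squares) and SW780 (green triangles), with lines joining the 2 libraries of a cell line. ATF3, DNAJB9 and EDEM2 go up in all 3 lines with no overlap between treatments, ATF4 and DDIT4 go down in all 3 (not in RT4 after the GC correction), and DDIT3, HSPA5 and HSP90B1 go up in RT4 and SW780 and down in RT112.

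On the ER side, the transcripts of the sensors PERK and ATF6 were higher with quisinostat in each line. That of XBP1, the target of IRE1 grouped with them, was higher in SW780 alone. EIF2AK3, which encodes PERK (chr2:88556741-88627576), measured 8.17, 6.64 and 4.99 FPKM in RT4, RT112 and SW780 with DMSO and 20.4, 8.55 and 6.86 FPKM with quisinostat. The treated SW780 library lay below the RT4 control, and limma gave 0.65 ± 0.26 (SE, 3 pairs, adjusted p = 0.362). ATF6 went from 6.55 to 12.5 FPKM in RT4, from 9.82 to 11.3 in RT112 and from 10.6 to 17.6 in SW780. The treatments did not overlap, if narrowly between the treated RT112 library and the SW780 control, and limma gave 0.56 ± 0.22 (SE, 3 pairs, adjusted p = 0.355). XBP1 went from 51.6 to 34.3 FPKM in RT4, from 36.7 to 27.7 in RT112 and from 22.9 to 27.1 in SW780, and its spliced and unspliced forms are summed in these values.

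The ER chaperones as a group were higher with quisinostat in RT4 and SW780 and not in RT112. Medians over the 11 genes were 0.80, -0.02 and 0.29 in RT4, RT112 and SW780, and the summed level went from 940.4 to 1554 FPKM in RT4, from 951.2 to 855.8 FPKM in RT112 and from 805.9 to 960.7 FPKM in SW780. HSPA5, which encodes BiP, the main Hsp70 chaperone of the ER (chr9:125234853-125241330), measured 119, 120 and 109 FPKM with DMSO and 193, 100 and 192 FPKM with quisinostat. Controls were thus nearly alike in the 3 lines, and the treated RT4 and SW780 libraries stood above them while the treated RT112 library stood below. In folds this is 1.63, 0.832 and 1.77, short of 2-fold in every line, and limma gave 0.42 ± 0.26 (SE, 3 pairs, adjusted p = 0.486).

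HSP90B1, the ER Hsp90 known as GRP94, was likewise lower in RT112 and higher in the other lines. It went from 163 to 333 FPKM in RT4, from 204 to 172 in RT112 and from 166 to 195 in SW780, and only RT4 passed 2-fold. CALR, calreticulin, the most abundant transcript of the list in RT4, went from 373 to 651 FPKM in RT4, from 368 to 362 in RT112 and from 197 to 242 in SW780. CANX, its membrane-bound relative calnexin, had ratios of 0.31, -0.37 and -0.39, and HYOU1, the large chaperone GRP170, had 0.15, -0.14 and 0.35.

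Co-chaperones of BiP help it to bind its substrates. DNAJB9, or ERdj4 (chr7:108569568-108574850), measured 2.06, 2.94 and 2.16 FPKM in RT4, RT112 and SW780 with DMSO and 5.25, 3.85 and 4.71 FPKM with quisinostat. Every treated library was above every control, and the limma estimate was 0.73 ± 0.27 (SE, 3 pairs, adjusted p = 0.345). DNAJB11, or ERdj3, went from 9.08 to 20.0 FPKM in RT4, from 17.1 to 17.7 in RT112 and from 12.9 to 28.6 in SW780, again with no overlap but with RT112 nearly level. DNAJC3, known as p58IPK, had ratios of 0.90, -0.26 and 0.27. MANF, a small secreted ER protein, went from 27.5 to 57.5 FPKM in RT4, from 17.5 to 17.9 in RT112 and from 17.9 to 40.5 in SW780. Its treatments overlapped, since the treated RT112 library lay below the RT4 control.

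CRELD2 and SDF2L1, which ER stress is known to induce, are counted among these ER chaperones. Before the GC correction they did not share the direction of the group median in RT4. CRELD2 went from 10.1 to 5.76 FPKM in RT4, from 5.95 to 6.25 in RT112 and from 6.36 to 5.87 in SW780. SDF2L1, a cofactor of ERdj3 and BiP, went from 9.34 to 6.88 FPKM in RT4, from 5.34 to 7.15 in RT112 and from 5.60 to 5.83 in SW780. Neither reached 2-fold in any line, and in both the RT4 ratio (-0.81 and -0.44) was the lowest of the 3. Transcripts of CRELD2 and SDF2L1 have 60.7% and 65.5% GC, above the list median of 49.9%. After the GC correction CRELD2 was at 0.03, -0.55 and 0.13 in RT4, RT112 and SW780, and SDF2L1 at 0.90, -0.59 and 0.46. The corrected medians of the ER chaperones were 0.64, -0.18 and 0.41.

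The disulphide isomerases and the oxidase that drives them had medians of 0.35, -0.17 and 0.07 over 5 genes. PDIA4, or ERp72, went from 87.6 to 107 FPKM in RT4, from 77.6 to 79.1 in RT112 and from 52.8 to 67.4 in SW780. PDIA3, or ERp57, had ratios of 0.66, -0.29 and 0.20, and PDIA6 had 0.35, -0.17 and 0.07. P4HB, the classical isomerase, had -0.18, 0.36 and -0.36, which turned to 0.42 in RT4 and -0.08 in RT112 after the GC correction. ERO1A, the oxidase, had ratios of 0.84, -0.70 and 0.05, and 0 of the 5 genes passed 2-fold in any line.

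Factors of ER-associated degradation, which draw misfolded proteins out of the ER for the proteasome, had medians of 0.93, 0.20 and 0.90 over 5 genes. These medians include the locus of SYVN1, whose value (0.62 in RT112) is shared with another gene. In RT112 the remaining ratios went both ways, at 0.60 for EDEM2, 0.20 for SEL1L, -0.31 for EDEM1 and -0.49 for HERPUD1. EDEM2, a mannosidase that marks glycoproteins for disposal (chr20:35115357-35147364), measured 8.99, 10.6 and 12.2 FPKM in RT4, RT112 and SW780 with DMSO and 20.0, 16.0 and 22.7 FPKM with quisinostat. The treatments did not overlap, and limma gave 0.82 ± 0.20 (SE, 3 pairs, adjusted p = 0.278). SEL1L, the adaptor of the ubiquitin ligase HRD1, went from 10.5 to 28.0 FPKM in RT4, from 9.53 to 10.9 in RT112 and from 13.4 to 26.2 in SW780. EDEM1, a relative of EDEM2, went from 12.3 to 23.4 FPKM in RT4, from 29.2 to 23.5 in RT112 and from 11.5 to 27.2 in SW780. RT112 thus had the highest EDEM1 level without drug and was the line in which it was lower with it.

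HERPUD1, a membrane protein that recruits substrates to HRD1, went from 13.9 to 18.1 FPKM in RT4, from 13.4 to 9.57 in RT112 and from 23.8 to 16.3 in SW780. It is the gene of the printed composite elements that was lower in SW780, at -0.55 on the log2 scale. SYVN1, which encodes HRD1, had ratios of -0.90, 0.62 and 0.04, but its locus is shared with the ribosomal protein gene FAU, so this value cannot be assigned to SYVN1. In the ER membrane, SEC61B of the translocon had ratios of -0.12, 0.22 and 0.45, with levels from 49.7 to 80.4 FPKM. WFS1, wolframin, went from 6.81 to 4.15 FPKM in RT4, from 5.05 to 11.1 in RT112 and from 4.20 to 4.68 in SW780, and it is the ER gene past 2-fold higher in RT112 (1.14).

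Genes with a given promoter element went in both directions. The 6 genes with the composite element had median ratios of 0.44, 0.00 and 0.87 in RT4, RT112 and SW780, and the 37 other list genes with both a window and a value had 0.31, 0.05 and 0.27. Individual ratios among the 6 ran from -0.02 to 3.39 in RT4 and from -0.55 to 2.07 in SW780. The 7 genes with the ER stress element had medians of 0.35, -0.24 and 0.24, against 0.36, 0.08 and 0.38 for the 36 without it. In RT112, 1 of the 7 was above 0, as were 23 of the 36 and 53.6% of all loci.

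Responses varied with the GC content of the transcript, and not in the same way in each line. Spearman's rho of the response with GC content took values of -0.68, 0.29 and -0.28 over the 46 genes in RT4, RT112 and SW780, and over the 8407 loci with a GC value it was -0.49, 0.44 and -0.22. The 26 ER genes had a median GC of 47.8% and the 20 ATF4 and amino acid genes had 55.9%. Their median ratios were 0.68, 0.03 and 0.28 for the ER genes and 0.02, 0.07 and 0.21 for the ATF4 and amino acid genes in RT4, RT112 and SW780. After a smooth trend on GC was subtracted in each line, these became 0.44, -0.09 and 0.37 for the former and 0.35, -0.19 and 0.20 for the latter. Whether the GC trend is technical was not tested.

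After that correction the list medians became 0.43, -0.10 and 0.33, against 0.01, -0.01 and 0.00 over all loci, and 9 genes were past 0.3 higher in all 3 lines, where 11.4% of loci were. The 6 named above were among the 9, and ATF6, SEL1L and SESN2 joined them. On the lower side DDIT4 left (0.27, -1.27 and -0.37) while ATF5 (-0.86, -0.72 and -0.69) and PYCR1 (-1.47, -0.38 and -0.94) entered, where 7.73% of loci were lower. ATF3 was nearly unmoved at 3.38, 3.29 and 1.82, and ATF4 turned to 0.10 in RT4 with -0.75 in RT112 and -0.18 in SW780. HSPA5 was at 0.45, -0.18 and 0.73. Of ratios past 0.3, the correction turned the sign of 12, in ATF4, CEBPB, DDIT4, TRIB3, PHGDH, SDF2L1, CANX, CRELD2 and WFS1 in RT4 and in PYCR1, SDF2L1 and P4HB in RT112.

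**Figure D4:**
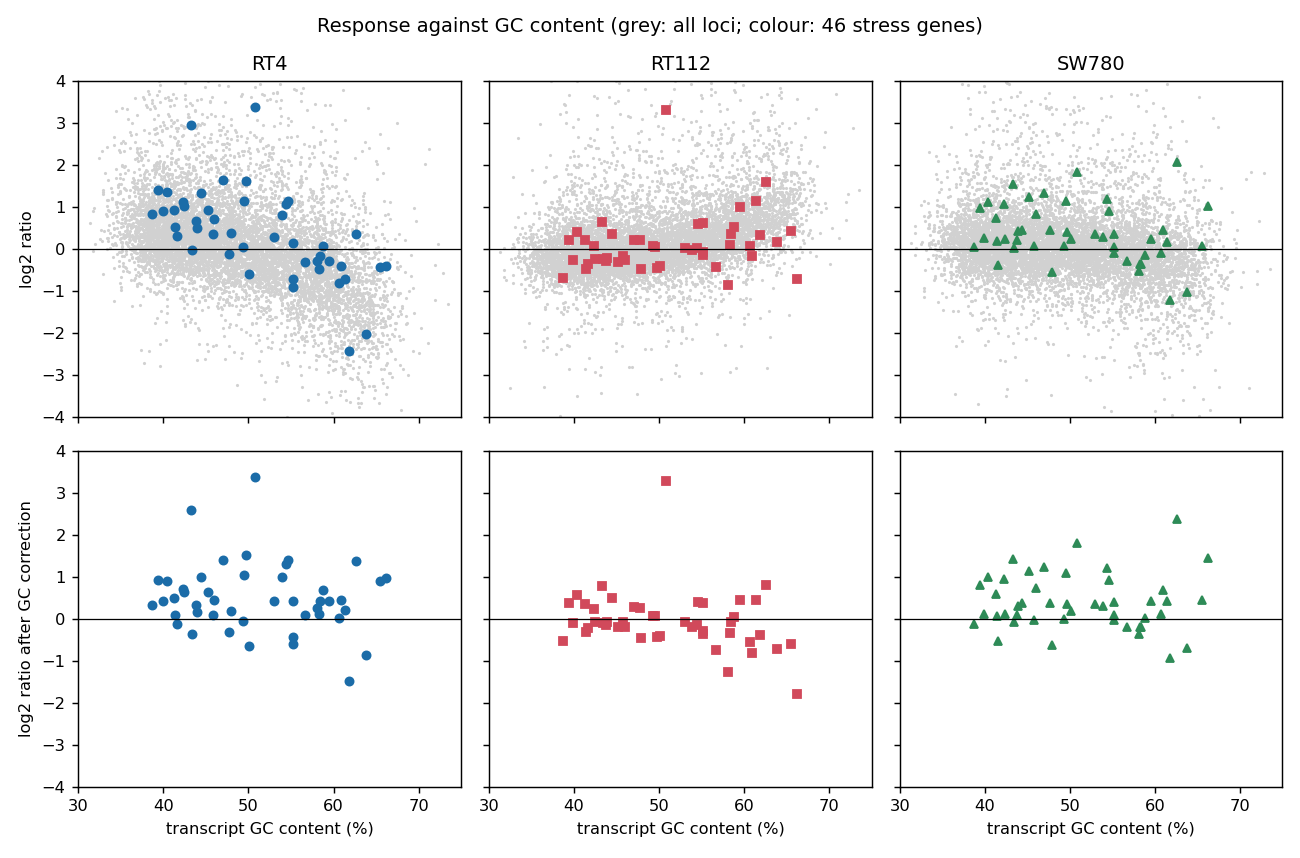
Log2 ratio against the GC content of the transcript in percent, for all loci (grey, upper row) and the 46 stress genes (colour), before (upper row) and after (lower row) the trend on GC was subtracted in each line. Loci beyond 4 in either direction are not drawn. Ratios decline with GC in RT4 (rho of the 46 genes -0.68) and rise in RT112 (0.29), and after correction rho is -0.10 and -0.30.

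A wider list of 62 other genes of these pathways, none of them among the 50, had 54 genes in the table. Their median ratios were 0.43, 0.01 and 0.35 in RT4, RT112 and SW780, and 0.22, -0.03 and 0.29 after the GC correction. Before it, 5 of the 54 were past 0.3 higher in all lines, where 11.4% of all loci were. Only 1 was past 0.3 lower in all lines, where 4.99% were. Ordered by the weakest of the 3 ratios, KLHL24, a ubiquitin ligase adaptor, was highest (2.55, 1.94 and 2.08), followed by OS9, a lectin of ER-associated degradation (1.42, 0.89 and 0.72). By the same measure on the lower side, GDF15, a stress cytokine, came first (-0.41, -1.47 and -0.62), and EIF2AK1, the haem-regulated eIF2 alpha kinase, came next (-0.22, -0.19 and -0.39).

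The labels were checked with CDKN1A, the cell cycle inhibitor p21, a gene known to respond to histone deacetylase inhibitors. It had ratios of 0.12, 1.36 and 0.52 in RT4, RT112 and SW780, past 0.3 in the latter pair of lines and not in RT4. All 10 epithelial and urothelial markers looked for were in the table, although UPK3A was listed at 0 in both RT112 libraries. Most of the markers, too, differed between RT112 and the other lines. Of the 9 with a ratio, 7 were below 0 in RT4, 2 in RT112 and 7 in SW780, among them the keratin KRT19 (-1.81, 0.82 and -0.97) and the uroplakin UPK2 (-2.92, 0.58 and -2.49). EPCAM went the other way (0.60, -0.39 and 0.32). CDH1 was above 0 in every line (0.32, 0.28 and 0.32) and PPARG below 0 in every line (-0.09, -0.75 and -0.17). The summed level of all 10 went from 1695 to 848 FPKM in RT4, from 957 to 1393 in RT112 and from 1541 to 941 in SW780, and the part of this in the responses of the stress genes was not tested. Of 8 markers of other cells 1 was in the table, the collagen gene COL1A1, which ran from 0.0342 to 0.173 FPKM with DMSO and from 0.474 to 1.45 FPKM with quisinostat, and its part in the responses was not tested. The other 7 were not among the names.

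Without drug, most of the list was well expressed. Of the 46 genes, 30 were above the median of all loci in all 3 DMSO libraries, 4 were under 1 FPKM in some library, and 14 differed more than 2-fold between the lines. No shares of all loci were computed beside these counts, so they describe the list only. The summed level of the 46 genes was 2244, 2060 and 1939 FPKM in RT4, RT112 and SW780 with DMSO and 2976, 1923 and 2183 FPKM with quisinostat.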

How the data were processed

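Polyadenylated RNA of the 6 libraries was prepared with a stranded kit and sequenced on an Illumina NovaSeq. The authors deposited FPKM per locus, taken from Ballgown after alignment by HISAT2 and assembly by StringTie. The submitters' processing notes name CASAVA 1.8.2, Trimmomatic 0.36, HISAT2 2.2.1, SAMtools 1.15.1, StringTie 2.2.1 and build GRCh38. The annotation release, the criterion for the rows and the handling of reads shared with gene copies are not given in the sources used here. The smallest value above 0 was 1e-06 FPKM, so whole reads could not be recovered and depth is unknown. The treated SW780 library carries a misspelt line name in 1 label and was assigned by its title. All columns of values were used.

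Plain log2 ratios of FPKM were computed per line, with no pseudocount, over loci above 0 in all libraries. Across lines, limma 3.58.1 in R 4.3.3 was fitted to log2(FPKM + 1) where the mean FPKM reached 1. The line was a block, since both libraries of a pair come from 1 line, the mean-variance trend was modelled, and adjustment followed Benjamini and Hochberg. A fold change on that scale understates the change of low genes. GC content came from the longest coding transcript of GENCODE 29 (92.3% of loci). Where a gene had no coding transcript, its longest of any kind was taken. At loci with more than 1 name, such as those of ATF5 and SYVN1, GC content was averaged over the names. A lowess curve with a span of 0.3 was subtracted in each line. Gene positions are those of GENCODE 29, and promoter windows those of RefSeq on GRCh38.p14. The GC correction and the limma fit were run on simulated data with planted changes, which were larger than most on this list. Python 3.11.15 was used with pandas, NumPy, SciPy, statsmodels and matplotlib.

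The genes and lists were chosen with earlier results of these data known. By rule, every gene found was named with its role, and values in all libraries were given for preselected genes (ATF4, DDIT3, ATF3, TRIB3, CHAC1, SESN2, DDIT4, PPP1R15A, ASNS, PSAT1, PHGDH, CTH, EIF2AK3, XBP1, HSPA5, HSP90B1, DNAJB9, HERPUD1, SDF2L1, CRELD2, PDIA4 and CALR) and for those past 0.3 in the same direction in all lines. Values of ATF5, ATF6, CEBPB, DNAJB11, EDEM1, MANF, PYCR1, SEL1L, SHMT2 and WFS1 were added after they were seen. For the wider list the 2 highest and 2 lowest by their weakest ratio were named. Alternatives were a pseudocount (0.1 or 1), a filter on the mean FPKM (1 or 5), centring, quantile normalization, the GC correction, loci with a single name, other limits, leaving out a line, and fits with no block or no trend. Protein sequences were not used here. A further gene planned for the check of the treatment labels is not reported here.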

Additional observations from a re-analysis of the deposited data

Results flagged for a closer look

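In 5 genes the level was more than 2-fold different in 1 line and past 0.3 on the log2 scale in the opposite direction in another, where 17.7% of all loci met the same limits. Each value compares 1 library with 1 library, and the difference between lines was not tested. CEBPB was at 1.03 in SW780 and -0.72 in RT112, and after the GC correction at 1.45 and -1.79, with its level below 7 FPKM in every library. DDIT3 was at 1.61 in RT4 and -0.45 in RT112, and after the correction at 1.53 and -0.44. EDEM1 was at 1.24 in SW780 and -0.31 in RT112, and after the correction at 1.15 and -0.20. PYCR1 was at 0.34 in RT112 and -2.43 in RT4, but after the correction it was below 0 in both (-0.38 and -1.47). WFS1 was at 1.14 in RT112 and -0.71 in RT4, but after the correction it was above 0 in both (0.45 and 0.21). Transcripts of CEBPB, PYCR1 and WFS1 have 66.2%, 61.8% and 61.4% GC, and those of DDIT3 and EDEM1 have 49.7% and 45.2%. By sign alone, CEBPB, DDIT3 and EDEM1 kept opposite directions after the correction, with EDEM1 in RT112 (-0.20) no longer past 0.3. The part of GC content in these differences was not tested.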

How the results depend on the processing

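In RT112 the 3 genes past 2-fold higher became 1 with a pseudocount of 1, a mean FPKM of at least 5, quantile normalization or the GC correction. In SW780 the 10 became 6 with a pseudocount of 1, 5 with the filter and 6 with quantile normalization. Of the 2 past 2-fold lower in SW780, 1 was left with a pseudocount of 1, quantile normalization or single-name loci and 0 after the GC correction. Of the 2 lower in RT4, 1 was left after the GC correction or with single-name loci, and the GC correction gave 2 lower in RT112 in place of 0. With a limit of 0.5 on the log2 scale, 21, 8 and 14 were higher and 7, 3 and 4 lower in RT4, RT112 and SW780. The share of all loci past that limit was not computed, so these counts describe the list only. The 6 genes higher in all lines became 2 with the filter at 5 or quantile normalization, 3 at a limit of 0.5 and 1 (ATF3) at a limit of 1. The 1 gene lower in all lines became 0 with a pseudocount of 1 or a limit of 0.5 or 1, and 2 after centring or the GC correction. Leaving out a cell line gave from 6 to 16 genes higher (16 without RT112) and from 3 to 4 lower in the remaining lines. That rule is looser, and no share of all loci was computed for it. The RT112 median of 0.04 turned to -0.014 with centring, -0.028 with quantile normalization and -0.095 with the GC correction. The log2 ratio of CHAC1 in RT112 turned to -0.197 with quantile normalization. The cause of these shifts was not tested. limma called 0 loci at an adjusted p under 0.05 under every alternative, including the fit with no replicate block, where the cell lines were not paired and the smallest adjusted p of a list gene was 0.973, against 0.226 with the block and 0.103 with the GC correction. At an unadjusted p under 0.05 the 8 list genes higher became 2 without the block, 2 without RT4, 13 without RT112 and 1 without SW780, while over all 9430 loci 913 became 314, 522, 1173 and 390. With 1 library per condition and no read counts, the precision of a single value is unknown.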
